A study of Mus musculus with 273 samples.

Results

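The Htr2c intron miRNA hairpins are 5 precursors, mmu-mir-764, mmu-mir-1912, mmu-mir-1264, mmu-mir-1298 and mmu-mir-448, that lie inside the gene for the serotonin receptor 2C. They were chosen by name and position from the 1226 hairpins that the count tables list, of which 1004 had at least 1 count. The samples were wild-type C57BL/6J males, an inbred mouse strain, at 26 weeks of age. Small RNA libraries numbered 78 for right cortex, 46 for right striatum, 72 for hypothalamus and 77 for liver. No group carried a mutation or a treatment. The animals, 79 in all, were taken at 3 h steps over 36 h, and each library of a tissue came from a different animal. The animal of striatum ZT9 replicate 9 is spelled CR88, while every other label begins with CRM. An animal CRM88 of the same time point has cortex, hypothalamus and liver libraries and no striatum library. Whether they are 1 animal is not given in the sources used here, so CR88 was counted apart and this library enters no comparison within animals. Zeitgeber time (ZT) is the time point modulo 24 h. Tissue and ZT together defined 31 groups, the smallest of 2 libraries and the largest of 12, and the light schedule was not given in the sources used here.

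Htr2c encodes a G protein-coupled serotonin receptor that acts in neurons of many brain regions and is densely expressed by the epithelium of the choroid plexus, the tissue that secretes cerebrospinal fluid into the ventricles. An intronic miRNA on the strand of its host gene can be cut from the host's own transcript, and each hairpin is then processed to mature miRNAs of which bases 2 to 8, the seed, pair with target mRNAs. In the mouse genome (GRCm38, RefSeq annotation of GRCm38.p6) Htr2c spans chrX:146962464-147197277 on the plus strand, and all 5 hairpins lie on that strand within its introns. The first of them, mmu-mir-764, is at chrX:147002259-147002366, followed after 7074 bases by mmu-mir-1912 at chrX:147009441-147009527 and after 1073 more by mmu-mir-1264 at chrX:147010601-147010686. Then mmu-mir-1298 follows at chrX:147064905-147065002, after 54218 bases and still in intron 2, which lies between exons 2 and 3 and is 90779 bases long. The last, mmu-mir-448, is 93207 bases further on at chrX:147158210-147158321, in intron 4 between exons 4 and 5. None overlapped an exon of the 7 annotated Htr2c transcripts.

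The mature sequences show what each hairpin can contribute as a regulator, and are printed from RefSeq for GRCm38.p6, 5′ to 3′, with the seed in capitals. RefSeq held 8 mature arms for the 5 hairpins, 1 each for mmu-mir-1912 and mmu-mir-1264 and 2 for each of the others.
mmu-miR-764-5p: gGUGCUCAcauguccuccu
mmu-miR-764-3p: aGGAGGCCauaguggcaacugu
mmu-miR-1912-3p: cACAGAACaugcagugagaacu
mmu-miR-1264-3p: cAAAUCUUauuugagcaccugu
mmu-miR-1298-5p: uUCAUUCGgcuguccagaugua
mmu-miR-1298-3p: cAUCUGGGcaacugauugaacu
mmu-miR-448-5p: gAACAUCCugcauagugcugcc
mmu-miR-448-3p: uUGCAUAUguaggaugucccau
The 8 seeds were all different, so the cluster is not a family of copies. Among 1738 mature entries in the RefSeq table, only mmu-miR-764-3p shared its full seed with another miRNA, mmu-miR-7062-5p. Over bases 2 to 7 alone, mmu-miR-448-3p matched mmu-miR-153-3p and mmu-miR-6335, mmu-miR-448-5p matched mmu-miR-499-3p, and mmu-miR-1298-5p matched mmu-miR-12187-3p. The tables count whole hairpins, so both arms of mmu-mir-764, mmu-mir-1298 and mmu-mir-448 fall in 1 value. The hairpin of mmu-mir-1298, which held most of the cluster's counts, shows how far apart its arms lie, with both mature arms in capitals.
mmu-mir-1298: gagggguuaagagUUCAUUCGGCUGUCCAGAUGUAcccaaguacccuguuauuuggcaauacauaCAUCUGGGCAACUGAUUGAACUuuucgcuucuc

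Library totals lay between 743902 and 5236177 counts, apart from striatum ZT9 replicate 6, which held 26341. Levels below are CPM, a hairpin's count divided by its library's total on a common scale, with no division by length. A count of 0 allows up to 3 counts, at most 2.78 CPM in cortex, hypothalamus and liver libraries and 113.9 CPM in striatum ZT9 replicate 6. These limits, like the intervals on shares, cover counting error only. By the spread of their correlation with the other libraries of their tissue, 1 cortex, 4 striatum, 2 hypothalamus and 1 liver library stood apart. They are kept, and without them no count of called members given below changed by more than 1.5 times. No 2 libraries of a group held identical counts among 1214 pairs. The hepatocyte list (mir-122, mir-192, mir-194-2 and mir-802) summed to a median of 314589 CPM in liver and at most 7510 CPM in any brain library. Of the 9 hairpins of a neuron list, the 6 of mir-9 and mir-124 were at 0 in all liver libraries. The other 3, mir-128-1, mir-128-2 and mir-137, had liver medians above 0. The whole neuron list summed to a median of 18.6 CPM in liver, against 22120 in cortex, 9205 in striatum and 3946 in hypothalamus.

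The 5 hairpins differed widely in level and took the same order of medians in the 3 brain regions, with mmu-mir-1298 first, then mmu-mir-448, mmu-mir-764, mmu-mir-1264 and mmu-mir-1912. In cortex mmu-mir-1298 ran from 124.3 to 6365 CPM with a median of 533.9. In striatum it ran from 294.5 to 12325 CPM with a median of 1503, and in hypothalamus from 566.6 to 1246 CPM with a median of 876.7. The hypothalamus libraries lay close together, while striatum and, less often, cortex held single libraries far above the rest. For mmu-mir-448 the lowest, median and highest levels were 8.56, 37.2 and 550.2 CPM in cortex. They were 30.4, 148.0 and 1127 CPM in striatum, and 85.0, 145.2 and 182.5 CPM in hypothalamus. The medians of mmu-mir-448 in striatum and hypothalamus were nearly equal, but the spread in striatum was far wider. The plot of levels by library shows both patterns.

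**Figure D1:**
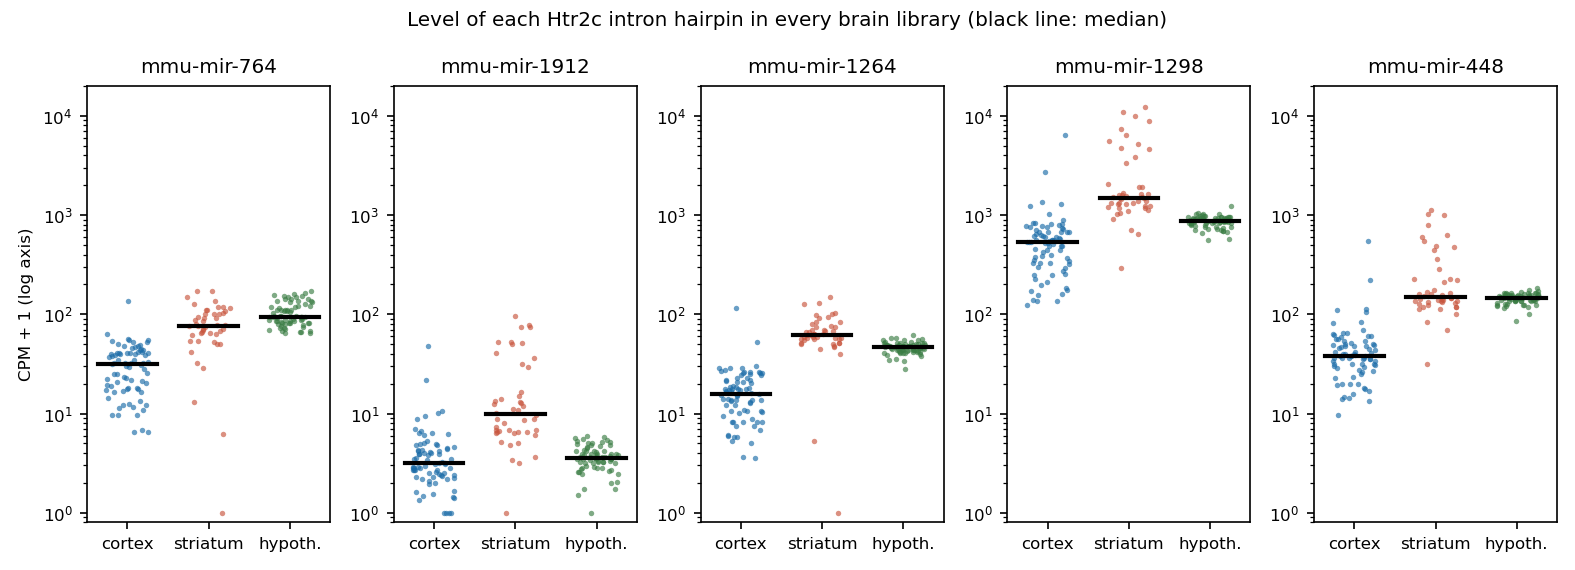
Level of each hairpin (CPM plus 1, log axis) in the libraries of cortex, striatum and hypothalamus, 1 point per library, with the median as a black line. The highest mmu-mir-1298 library of striatum reaches 12325 CPM, while hypothalamus stays between 566.6 and 1246 CPM.

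At the 5′ end of the cluster, mmu-mir-764 ran from 5.52 to 134.8 CPM in cortex (median 30.5), from 0 to 171.3 CPM in striatum (median 76.0) and from 64.3 to 169.9 CPM in hypothalamus (median 93.2). It is the only member whose median was highest in hypothalamus. The medians of mmu-mir-1264 were 14.9 CPM in cortex, 61.6 CPM in striatum and 45.6 CPM in hypothalamus, with ranges of 2.58 to 115.5, 0 to 148.1 and 27.4 to 60.5 CPM. The rarest member, mmu-mir-1912, had medians of 2.14, 8.83 and 2.59 CPM in the same order and highest values of 46.7, 95.2 and 4.97 CPM. It had no count in 4 cortex libraries, 1 striatum library and 1 hypothalamus library. The striatum library at 0 for mmu-mir-764, mmu-mir-1264 and mmu-mir-1912 was ZT9 replicate 6. A count of 0 there allows up to 113.9 CPM, above the striatum median of each of them.

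All 5 hairpins were higher in striatum than in cortex. With edgeR's quasi-likelihood test in 1 fit of all libraries (Benjamini-Hochberg adjusted p under 0.05 and an absolute log2 ratio of at least 1), 5 of 5 members were called, against 14.5% of the 414 hairpins tested. The log2 ratios were 1.34 ± 0.11 (SE) for mmu-mir-764, 1.99 ± 0.11 for mmu-mir-1264, 2.20 ± 0.14 for mmu-mir-1298, 2.51 ± 0.13 for mmu-mir-448 and 2.55 ± 0.21 for mmu-mir-1912. At 0 to 12 h alone the ratios of mmu-mir-1298, mmu-mir-448 and mmu-mir-1912 were 1.54, 1.80 and 1.63, and at 24 to 36 h alone they were 2.47, 2.85 and 2.98, all called by edgeR. For mmu-mir-764 and mmu-mir-1264 these ratios were 1.55 and 2.05 in the first span and 1.12 and 1.90 in the second. Whether the spans differ was not tested. Over all libraries the median of the 5 ratios was 2.20, and that of all tested hairpins was 0.04. The largest adjusted p among the 5 was 1.11e-23, for mmu-mir-764. The groups overlapped: 45 of 46 striatum libraries were above the cortex median of mmu-mir-1298, and 2 of 78 cortex libraries were above its striatum median. Ratios of medians, which single high libraries move little, were 2.49 for mmu-mir-764, 4.12 for mmu-mir-1912, 4.13 for mmu-mir-1264, 2.82 for mmu-mir-1298 and 3.98 for mmu-mir-448. Within each of the 8 library runs (consecutive library numbers with 1 code in the labels, a code whose meaning is not stated) that held at least 3 libraries of both regions, every member's median was higher in striatum. In bulk tissue, more cells that make a miRNA and more of it per cell cannot be told apart.

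Hypothalamus exceeded cortex for 3 of the 5 members, with 28.3% of all tested hairpins called. The log2 ratios were 1.71 ± 0.10 for mmu-mir-764, 1.58 ± 0.12 for mmu-mir-448 and 1.41 ± 0.10 for mmu-mir-1264, all with edgeR adjusted p of at most 1.34e-29. All 72 hypothalamus libraries were above the cortex median for each of these 3, and 1 or 2 cortex libraries were above the hypothalamus median. The ratio of mmu-mir-1298 was smaller, 0.51 ± 0.12 with an adjusted p of 6.11e-05 in edgeR, and missed the minimum of 1. Its median was 1.64 times that of cortex. The ratio of mmu-mir-1912 was −0.40 ± 0.23 (adjusted p = 0.092 in edgeR), although its hypothalamus median was 1.21 times that of cortex, so its fitted ratio and its ratio of medians differ in sign. In the 9 runs that held both regions, the median was higher in hypothalamus in 9 of 9 for each member except mmu-mir-1912, at 6 of 9. The median ratio was 1.41 over the members and 0.04 over all tested hairpins.

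Between striatum and hypothalamus the members split. mmu-mir-1912 and mmu-mir-1298 were called higher in striatum, at 2.95 ± 0.23 and 1.69 ± 0.14 (edgeR adjusted p of 4.44e-27 and 1.51e-25), against 13.5% of all tested hairpins. Their medians differed less, by 3.41 and 1.71 times. In 39 of 46 striatum libraries mmu-mir-1912 was above every hypothalamus library, and in 33 of 46 mmu-mir-1298 was. For mmu-mir-1264 the ratio was 0.58 ± 0.12 and for mmu-mir-764 it was −0.37 ± 0.12, both with an adjusted p under the threshold (2.62e-06 and 0.00303 in edgeR) and a size under the minimum. The fit gave mmu-mir-448 a ratio of 0.92 ± 0.14 (adjusted p = 1.60e-10 in edgeR), but its medians stood at 1.02 and only 23 of 46 striatum libraries were above the hypothalamus median. Within runs its median was higher in striatum in 4 of 8, and that of mmu-mir-764 in 1 of 8, while the other 3 members were higher in 8 of 8. At 0 to 12 h alone the ratio of mmu-mir-448 was 0.17 (adjusted p = 0.52 in edgeR) and at 24 to 36 h it was 1.33. The ratio of mmu-mir-1298 was 0.92 at 0 to 12 h, under the minimum, and 2.10 at 24 to 36 h. The 3 comparisons share libraries, so their counts are not independent.

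**Figure D2:**
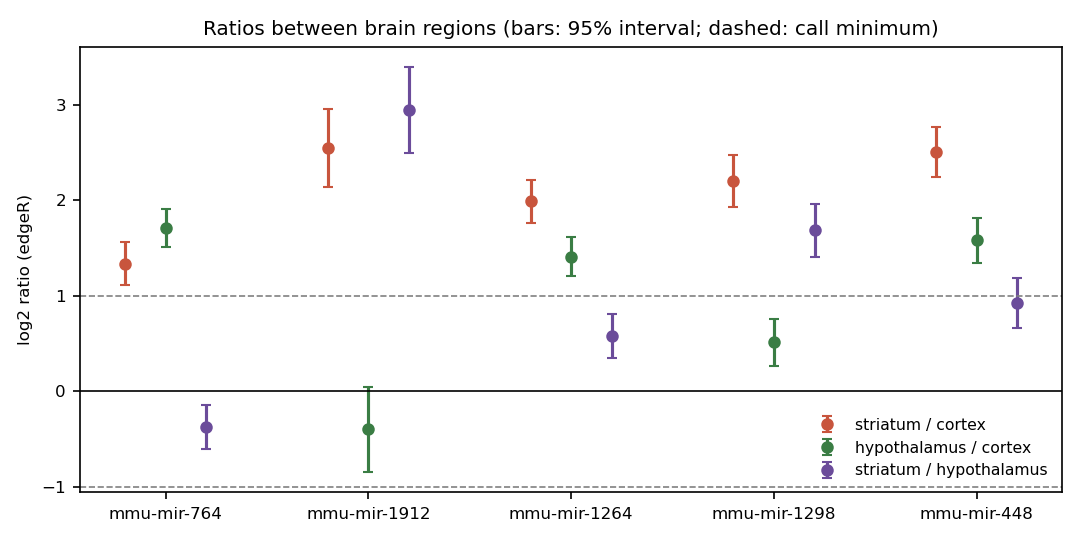
Log2 ratio of each hairpin between brain regions from the edgeR fit, with 95% intervals as bars and dashed lines at the minimum size of a call. Striatum exceeds cortex for all 5 hairpins, and the ratio of striatum to hypothalamus runs from −0.37 for mmu-mir-764 to 2.95 for mmu-mir-1912.

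Liver held almost none of the cluster. No count of mmu-mir-764, mmu-mir-1912 or mmu-mir-1264 was found among 229847904 counts in 77 liver libraries. Against a floor of 3 counts over the whole group, pooled mmu-mir-764 was at least 2618-fold higher in cortex, 7055-fold in striatum and 8398-fold in hypothalamus. The same floor gave at least 204-fold for mmu-mir-1912 in hypothalamus, the lowest of these bounds, and at least 1403-fold for mmu-mir-1264 in cortex. Liver had 5 counts of mmu-mir-1298, 1 in each of 5 libraries, and its pooled level in cortex was 31718-fold that of liver with a counting interval of 13592 to 97685. For mmu-mir-448 a single liver count gave a ratio of 12435 in cortex, with an interval from 2232 to 491164. Each of the 5 was called in every brain region against liver, as were 80.7% of tested hairpins in cortex, 81.9% in striatum and 81.6% in hypothalamus. The members passed the filter on low counts through the brain libraries alone, so these calls add nothing to the counts above.

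The makeup of the cluster also differed between regions. mmu-mir-1298 held a mean of 85.3% ± 1.87 (SD, n = 78) of the members' summed counts in cortex. Its share was 84.1% ± 3.41 in striatum (n = 46), and in hypothalamus it was lower, 74.6% ± 1.99 (n = 72). In hypothalamus mmu-mir-448 held 12.5% ± 1.25 and mmu-mir-764 8.74% ± 1.77, against 6.83% ± 1.06 and 4.91% ± 1.59 in cortex. The count ratio of mmu-mir-1298 to each other member does not depend on library scaling, and it was compared between regions of the same animals (log2 with 0.5 counts added, two-sided permutation test of signs, 12 tests). mmu-mir-1298 was a median of 12.8 times mmu-mir-448 in cortex, 10.2 times in striatum and 6.06 times in hypothalamus. Relative to cortex, this log2 ratio was lower by a mean of 1.08 ± 0.27 (SD) in hypothalamus, in 72 of 72 animals, and by 0.37 ± 0.41 in striatum, in 42 of 45. Both had an adjusted p of 2.67e-05, the smallest that 100000 permutations and this adjustment gave.

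The other ratios also differed between hypothalamus and cortex, with that of mmu-mir-1912 in the opposite direction. The log2 ratio of mmu-mir-1298 to mmu-mir-764 was lower in hypothalamus than in cortex by 1.07 ± 0.63 (SD), in 71 of 72 animals, and that to mmu-mir-1264 by 0.86 ± 0.49, in 71 of 72. To mmu-mir-1912 it was higher by 0.62 ± 1.01, in 55 of 72 animals. All 3 had a permutation adjusted p of 2.67e-05. Between striatum and cortex, the ratio to mmu-mir-764 was higher in striatum by 0.57 ± 1.07, in 31 of 45 animals (permutation adjusted p = 0.00108). The ratio to mmu-mir-1912 was at −0.33 ± 0.90 (permutation adjusted p = 0.017), and that to mmu-mir-1264 did not pass, at −0.12 ± 0.76 (permutation adjusted p = 0.32). In striatum relative to hypothalamus (43 animals), the ratio was at 1.60 ± 1.10 for mmu-mir-764 and 0.67 ± 0.71 for mmu-mir-1264. For mmu-mir-448 it was at 0.74 ± 0.32 and for mmu-mir-1912 at −0.98 ± 1.08, each of these with a permutation adjusted p of 2.67e-05. The 2 hairpins that lie 1073 bases apart, mmu-mir-1912 and mmu-mir-1264, thus stood in unlike proportions to mmu-mir-1298 in hypothalamus. Low counts of mmu-mir-1912 widen its ratios.

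**Figure D3:**
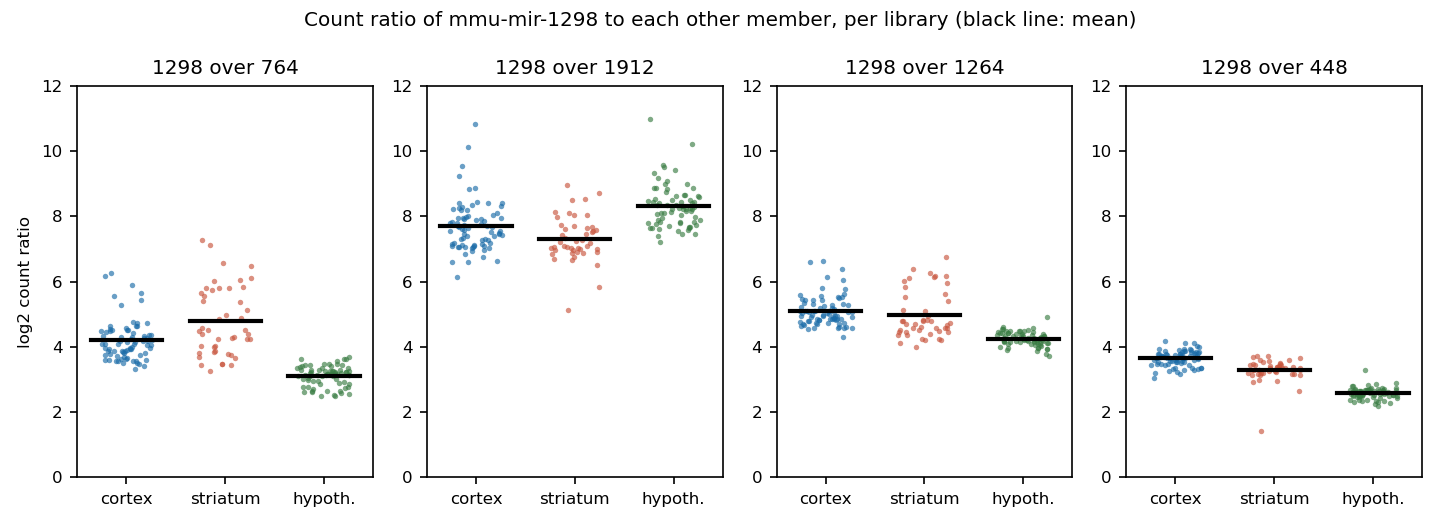
Log2 count ratio of mmu-mir-1298 to each other hairpin in every library (0.5 counts added to both), by brain region, with the mean as a black line. The ratio to mmu-mir-448 is lowest in hypothalamus, with a mean of 2.58 against 3.65 in cortex.

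The library with the highest cluster level was the maximum for 4 members in striatum and for all 5 in cortex. Striatum ZT9 replicate 9 had the highest summed level, 13782 CPM, with 12325 CPM of mmu-mir-1298, 1127 of mmu-mir-448, 95.2 of mmu-mir-1912 and 148.1 of mmu-mir-1264. All 4 were the striatum maximum. Its mmu-mir-764 level was 87.6 CPM, rank 19 of 46 from the top and close to the median of 76.0. As shares of the summed counts in this library, mmu-mir-1298 held 89.4% (exact binomial interval 89.1 to 89.8%) and mmu-mir-764 0.636% (0.547 to 0.734%). Over the 6 striatum libraries with the highest summed level, mmu-mir-764 ran from 64.5 to 171.3 CPM. Among them, ZT21 replicate 2 and ZT0 replicate 4 held its highest and second highest striatum levels, 171.3 and 169.0 CPM. Across striatum the coefficient of variation was 104.2% for mmu-mir-1298, 97.4% for mmu-mir-448 and 119.8% for mmu-mir-1912, but 40.5% for mmu-mir-1264 and 47.0% for mmu-mir-764. In cortex, ZT0 replicate 1 was the maximum for all 5 members, with 6365 CPM of mmu-mir-1298, which was 11.9 times the cortex median, and 134.8 CPM of mmu-mir-764, which was 4.42 times. In hypothalamus the coefficients were 13.0% for mmu-mir-1298, 12.8% for mmu-mir-1264 and 11.6% for mmu-mir-448, and 27.5% for mmu-mir-764.

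These high libraries were also high in mir-204, the leading hairpin of a list of miRNAs linked to choroid plexus epithelium (mir-204, mir-211, mir-34b, mir-34c, mir-449a, mir-449b and mir-449c). Over striatum libraries mir-204 ran from 7745 to 104951 CPM with a median of 14553, and its highest value was in the same ZT9 replicate 9. In the 6 striatum libraries with the highest summed level, mir-34c was at 3224 to 8276 CPM, above its median of 1045. Another hairpin of the list, mir-449a, was low there, at 2.42 to 17.4 CPM, under its striatum median of 18.9, while in cortex ZT0 replicate 1 it was at 26.6 CPM, above the cortex median of 17.8. The whole list summed to between 8694 and 109652 CPM in striatum, 4121 and 45052 CPM in cortex, 14422 and 24272 CPM in hypothalamus and 4.65 and 21.8 CPM in liver. Of its members, mir-449b had a median of 0 in every tissue, and the other 6 had medians above 0 in the brain regions. Of the 6 that passed the filter, mir-204, mir-34b and mir-34c were called higher in striatum than in cortex (log2 ratios of 2.07, 1.72 and 1.02), as they were in hypothalamus (1.60, 2.01 and 1.53), while mir-449a and mir-449c were called lower in hypothalamus than in cortex (−1.11 for mir-449a). The part of choroid plexus tissue in these levels was not tested.

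Over the libraries of striatum, log2 levels of mmu-mir-1298 and mir-204 were correlated with Pearson r = 0.83 and Spearman rho = 0.73 (permutation adjusted p of 2.5e-05 and 3e-05 over 15 relations). Without the 2 libraries farthest from the median of mir-204, r was 0.77, and within library runs it was 0.85. For mmu-mir-1912 and mmu-mir-448 in striatum r was 0.82 and 0.81. In cortex r was 0.72 for mmu-mir-1912, 0.65 for mmu-mir-1298 and 0.73 for mmu-mir-448, and it was 0.54, 0.44 and 0.53 without the 2 farthest libraries. For mmu-mir-764, r with mir-204 was 0.21 in cortex and 0.27 in striatum (permutation adjusted p of 0.078 and 0.077), while rho was 0.11 in cortex and 0.37 in striatum (permutation adjusted p of 0.37 and 0.019), so in striatum the rank measure passed and Pearson's did not. For mmu-mir-1264 in striatum both passed, with r = 0.38 and rho = 0.57 (permutation adjusted p of 0.019 and 0.00017), and r was 0.32 without the 2 farthest libraries. For mmu-mir-1264 in cortex r fell from 0.41 to 0.13 without the 2 farthest libraries, so the size of r depends on them. Its rho over all cortex libraries was 0.29 (permutation adjusted p = 0.019), and r within runs was 0.40. In hypothalamus, where mir-204 varied little, r of mmu-mir-1298 was 0.40 over all libraries and 0.02 within runs, so that relation did not hold within runs. One library went against the pattern: striatum ZT21 replicate 3, which stands apart from the others, had 34862 CPM of mir-204 and the lowest mmu-mir-1298 of its region, 294.5 CPM.

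**Figure D4:**
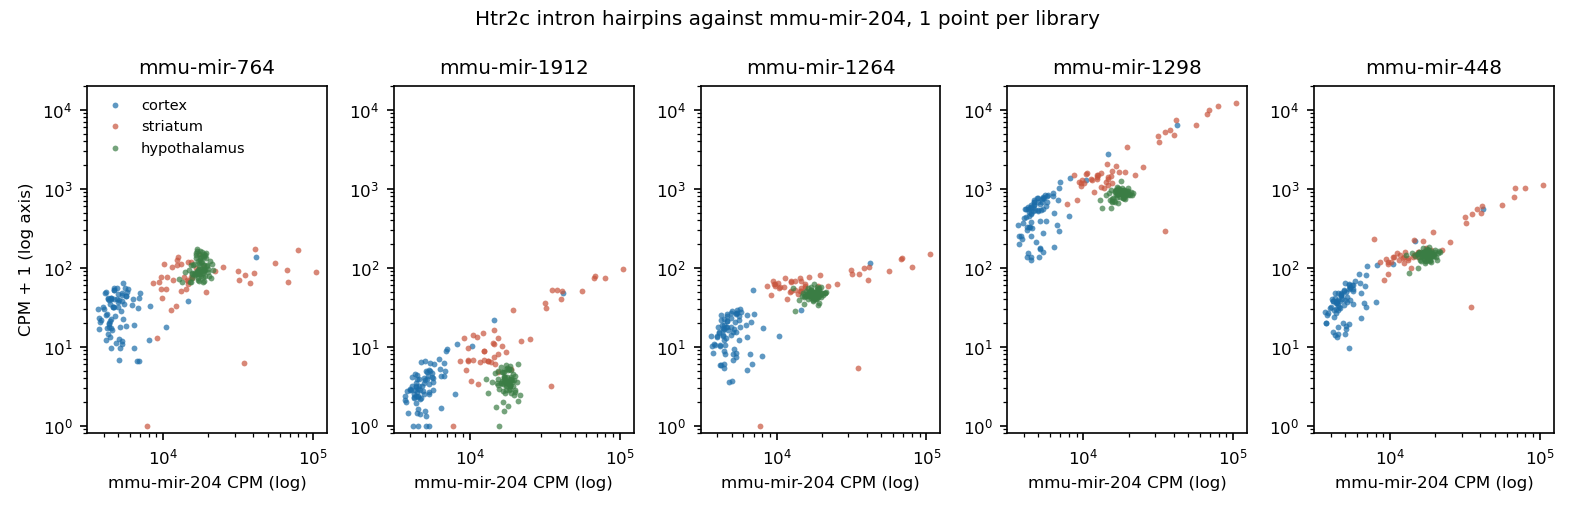
Level of each hairpin (CPM plus 1, log axis) against that of mir-204 (CPM, log axis), 1 point per library, coloured by brain region. mmu-mir-1298, mmu-mir-448 and mmu-mir-1912 are higher where mir-204 is higher over striatum and cortex libraries. For mmu-mir-764, r with mir-204 is 0.21 in cortex and 0.27 in striatum, and rho is 0.11 and 0.37.

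Members also differed in how closely they followed each other, given here as Spearman correlations of CPM with no test, since members of a library share its depth. mmu-mir-1298 and mmu-mir-448, the most distant neighbours on the chromosome, were at 0.97 in cortex, 0.80 in striatum and 0.48 in hypothalamus. mmu-mir-764 and mmu-mir-1912 were at 0.50, 0.06 and −0.05. mmu-mir-1912 and mmu-mir-1264, the nearest neighbours, were at 0.63, 0.62 and 0.04, and in hypothalamus the few counts of mmu-mir-1912 limit that value.

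mmu-mir-1298 held a mean of 85.3% of the summed counts in cortex, 84.1% in striatum and 74.6% in hypothalamus. Likeness to the summed members is therefore mainly likeness to that hairpin. Among hairpins outside the cluster with a mean of at least 10 CPM, those most like the summed members differed by region, by Spearman correlation over libraries and given as a description. In striatum (310 hairpins) they were mir-34b (0.80), mir-34c (0.77), mir-204 (0.75), mir-375 (0.68) and mir-152 (0.58). The first 3 of these belong to the choroid plexus list, of which mir-211 ranked 8 (0.54) and mir-449a ranked 247 (−0.18, and −0.29 without the libraries that stand apart). In cortex (303 hairpins) they were mir-187 (0.77), mir-378a (0.72), mir-193b (0.72), mir-3099 (0.70) and mir-700 (0.69). From the choroid plexus list, mir-449a ranked 6 there (0.69), mir-34c 19, mir-204 38, mir-34b 49 and mir-211 85. By Pearson correlation of log2 levels the cortex order changed: mir-378a (0.72), mir-381 (0.70) and mir-449a (0.69) led, and mir-187 (0.67) ranked 8, mir-193b 15 and mir-700 16. In hypothalamus (313 hairpins) they were mir-490 (0.83), mir-107 (0.76), mir-300 (0.74), mir-3059 (0.73) and mir-344b (0.72), and mir-204 ranked 166. No hairpin was among the 5 most alike by Spearman correlation in more than 1 region.

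Levels in a pair of regions of the same animal were compared for each member, 15 relations in all. 1 of them passed in 1 of the measures used: mmu-mir-448 in striatum and cortex had Spearman rho = 0.53 over 45 animals (permutation adjusted p = 0.0039), with Pearson r = 0.39 (permutation adjusted p = 0.14), 0.45 without the 2 farthest libraries and 0.41 within runs. For mmu-mir-1298 in the same pair rho was 0.30 and r was 0.30 (permutation adjusted p of 0.22 and 0.31). In the pair of hypothalamus and cortex, with 72 animals, rho for these hairpins was −0.08 and 0.0006.

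ZT0 to ZT12 were sampled in a first passage (0 to 12 h) and in a second one (24 to 36 h), and in cortex mmu-mir-764 was higher at the later passage. Its level ran from 5.52 to 134.8 CPM with a median of 16.9 in the first passage (30 libraries) and from 19.6 to 62.4 CPM with a median of 39.9 in the second (30 libraries). The ranges overlap, with the highest value of all, ZT0 replicate 1, in the first passage. The log2 ratio of second to first was 0.83 ± 0.18 (edgeR adjusted p = 0.000496), and 32.9% of the 377 hairpins tested in cortex were called. With the library run as a term it was 0.68 (adjusted p = 0.0102 in edgeR). mmu-mir-764 was the 1 member called of 4 tested, since mmu-mir-1912 fell under the filter on low counts. A count of 1 of 4 is not above the 32.9% of all tested hairpins. The medians of mmu-mir-1264 were 9.56 and 18.9 CPM, and its ratio did not pass, at 0.54 ± 0.23 (adjusted p = 0.064 in edgeR).

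That count rests on a single library. Without cortex ZT0 replicate 1, 4 of 4 tested members were called higher in the second passage, at 1.03 for mmu-mir-764, 0.84 for mmu-mir-1264, 0.67 for mmu-mir-1298 and 0.51 for mmu-mir-448, with edgeR adjusted p from 7.31e-08 to 0.013. The share of all tested hairpins called in that fit was not recorded. Whether 4 of 4 is more than that share can therefore not be said. With it, mmu-mir-1298 stood at 0.32 ± 0.26 and mmu-mir-448 at 0.13 ± 0.26, although their medians were 339.6 and 621.7 CPM, and 29.0 and 46.7 CPM, in the first and second passages. Also in cortex, 2 of the 6 tested hairpins of the choroid plexus list were called higher in the second passage, mir-449a (0.77) and mir-449c (1.09). In the main fit 32.9% of all tested hairpins were called, in either direction. The rest of the list was not called, with mir-204 at −0.33 (adjusted p = 0.10 in edgeR), mir-34b at −0.16, mir-34c at 0.16 and mir-211 at 0.17. All 3 members of the pineal and sensory list (mir-96, mir-182 and mir-183) were called higher in the second passage of cortex, with a median of 1.09. Their part in the change of mmu-mir-764 was not tested.

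In striatum no member was called between passages by edgeR, and 0% of the 363 hairpins tested were. DESeq2 called 0 as well. In edgeR 4 of the 5 had an unadjusted p under 0.05. The share of all tested hairpins under that unadjusted threshold was not recorded, and members of a library often rose together. Nothing about the members can therefore be read from that count. The ratio of mmu-mir-1298 was 1.12 ± 0.36, with an adjusted p of 0.29 in edgeR, while its medians were 1397 CPM (18 libraries) and 1594 CPM (21 libraries). The highest library was 5260 CPM in the first passage and 12325 CPM in the second. For mmu-mir-1912 and mmu-mir-448 the ratios were 1.31 ± 0.47 and 1.05 ± 0.35, for mmu-mir-1264 and mmu-mir-764 they were 0.33 and 0.31, and mir-204 was at 0.97 ± 0.32. In hypothalamus 0% of 361 hairpins and none of the 4 members tested were called by edgeR or DESeq2, and none had an unadjusted p under 0.05. There the interval of mmu-mir-1298 ran from −0.04 to 0.13 and that of mmu-mir-764 from −0.18 to 0.14. In liver no member passed the filter on low counts, and 0% of the 232 hairpins tested were called. Whether the change in cortex differed from that in the other regions was not tested.

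The level of mmu-mir-764 went with library run in hypothalamus and striatum. In hypothalamus its median was 148.3 CPM, 142.4 CPM and 115.6 CPM in the 3 highest runs (6, 10 and 12 libraries) and between 77.6 and 99.0 CPM in the other 7. The same 3 runs were the highest in striatum, at 114.9, 106.5 and 124.0 CPM (9, 5 and 4 libraries), against 42.0 to 76.9 CPM in the other 5. In cortex its run medians lay between 16.9 and 47.4 CPM. In hypothalamus, for mmu-mir-448 the run medians lay between 129.7 and 159.6 CPM, and for mmu-mir-1264 between 41.1 and 47.7 CPM. Those of mmu-mir-1298 lay between 698.2 and 943.2 CPM, and those of mmu-mir-1912, which rest on few counts, between 1.66 and 3.75 CPM.

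No member passed the test for a 24 h rhythm. The edgeR test of a cosine and a sine called none of the 5 members in cortex or in striatum and 0 of the 4 tested in hypothalamus, where mmu-mir-1912 fell under the filter, and none of these had an unadjusted p under 0.05. DESeq2 called 0 too. The fit held no term for passage, and ZT15 to ZT21 were sampled only between the passages. The test called 0.254% of all tested hairpins in cortex, 0.528% of those in striatum, 0.263% of those in hypothalamus and 4.98% of those in liver, where no member could be tested. The peak-to-trough log2 ratio of mmu-mir-1298 was 0.60 ± 0.35 in cortex, 0.70 ± 0.57 in striatum and 0.00 ± 0.05 in hypothalamus, with adjusted p of at least 0.986 in edgeR. For mmu-mir-764 it was 0.16 ± 0.25, 0.11 ± 0.27 and 0.15 ± 0.11. Single libraries and the hours used move these values: for mmu-mir-1298 the ratio was 0.31 without cortex ZT18 replicate 1 and 1.21 without striatum ZT9 replicate 9. For mmu-mir-764 in cortex it was 0.067 without ZT0 replicate 1, and 0.97 over 0 to 21 h alone. None of the alternatives run passed, with an edgeR or DESeq2 adjusted p of at least 0.19. These ratios cannot be negative, so a value near its SE is no sign of a rhythm, and the SE in striatum was far above that in hypothalamus.

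**Figure D5:**
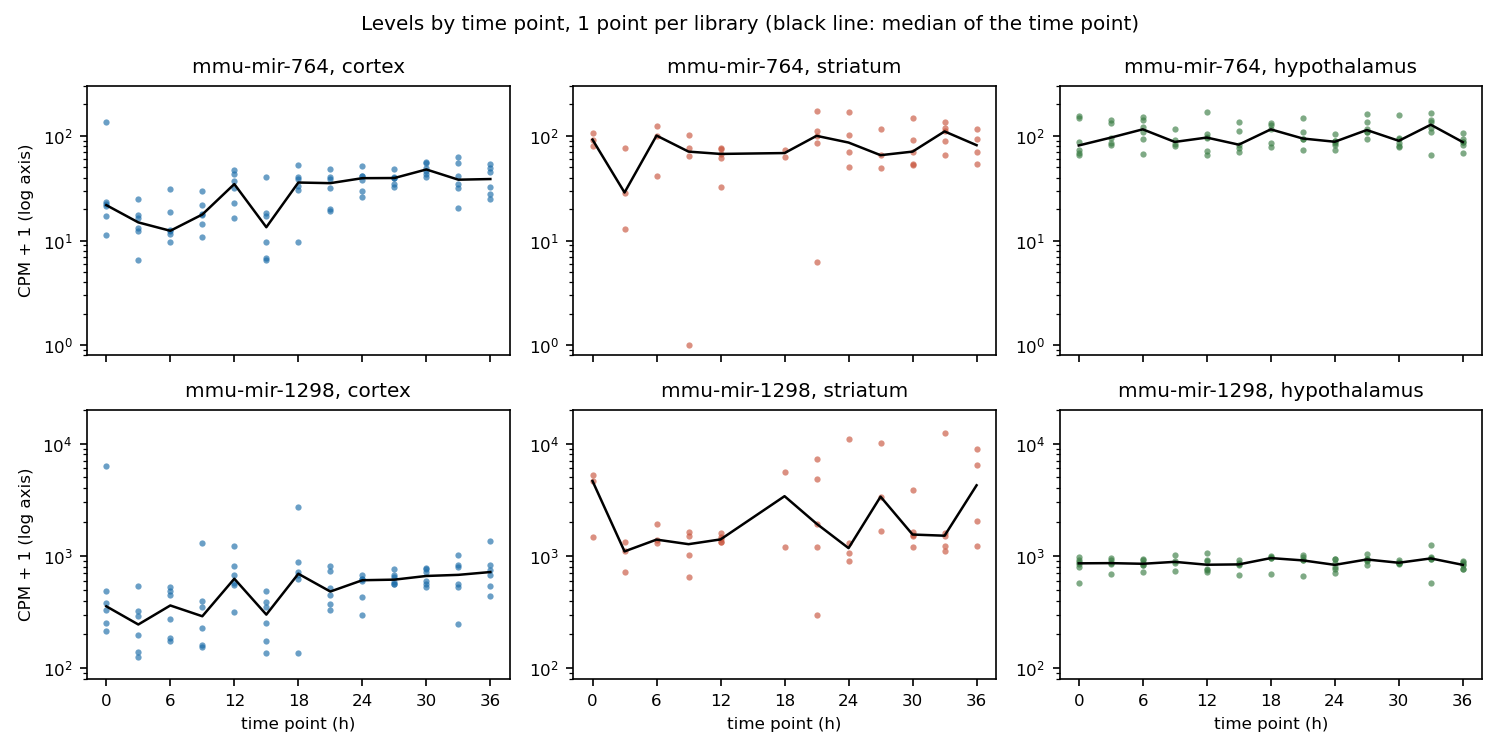
Levels of mmu-mir-764 and mmu-mir-1298 (CPM plus 1, log axis) by time point in hours, 1 point per library, with the median of each time point as a black line. In cortex mmu-mir-764 has a median of 16.9 CPM over 0 to 12 h and 39.9 CPM over 24 to 36 h, and in hypothalamus mmu-mir-1298 stays between 566.6 and 1246 CPM throughout.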

How the data were processed

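The deposited tables hold whole-number counts per library and miRNA hairpin that the authors made, with no normalization. Per the submitters' processing notes, STAR 2.7.3a, HTSeq 0.10.0 and GRCm38 (mm10) were used. Read trimming, the miRBase release and the treatment of reads with several matches are not given in the sources used here. Every library was mapped to its group from its label. The members and lists were chosen with earlier results of these data known, and all 5 members, the choroid plexus list and the 5 most similar hairpins per brain region are named.

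CPM used library totals. Tests used edgeR 4.0.16 in R 4.3.3 (TMM, filterByExpr, quasi-likelihood F test, Benjamini-Hochberg), with ZT as a factor for tissue and passage. They were also run on simulated counts with a common spread for all hairpins. The members varied more than that in striatum and cortex, so the simulation does not cover them there. DESeq2 1.42.0 was the other tool. Ratios and correlations used SciPy 1.17.1 with 100000 permutations. Replicate numbers do not pair libraries. Tissues of 1 animal do, per the labels, and an animal block was tried. The alternatives are given at the end.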

Additional observations from a re-analysis of the deposited data

Results flagged for a closer look

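In each group of 4 to 10 libraries, the highest and lowest level of every member was set against the others by Dixon's ratio. Of 65 such series 19 held a value that stood apart. The nominal rate of about 1 in 20 is for independent series of normal values. Members of a library often rose together and CPM are skewed, so 19 cannot be set against that rate.

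Most of these values came from 5 libraries with several members high at once. Striatum ZT9 replicate 9 had 95.2 CPM of mmu-mir-1912, 148.1 of mmu-mir-1264, 12325 of mmu-mir-1298 and 1127 of mmu-mir-448, where the other 8 libraries reached at most 1622 CPM of mmu-mir-1298. Its mir-204 level was 104951 CPM, against at most 18815 CPM in the others. Striatum ZT3 replicate 5 had 76.8 CPM of mmu-mir-1912, 10044 of mmu-mir-1298 and 1015 of mmu-mir-448, with 68529 CPM of mir-204. Striatum ZT0 replicate 4 had 11065 CPM of mmu-mir-1298 and 1008 of mmu-mir-448, with 79630 CPM of mir-204. Striatum ZT6 replicate 8 had 30.3 CPM of mmu-mir-1912, 83.3 of mmu-mir-1264, 3895 of mmu-mir-1298 and 364.3 of mmu-mir-448. Cortex ZT18 replicate 1 had 20.9 CPM of mmu-mir-1912, 2739 of mmu-mir-1298 and 218.4 of mmu-mir-448, with 14546 CPM of mir-204 against at most 6750 CPM in the others. mmu-mir-764 stood apart in none of these 5.

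The 3 other values belonged to single members. Cortex ZT15 replicate 1 had 39.9 CPM of mmu-mir-764, above the 5.52 to 17.3 CPM of its group, with mir-204 inside the group's range. Hypothalamus ZT15 replicate 1 had 1.05 CPM of mmu-mir-1912, below the 2.45 to 2.93 CPM of the others, a difference of few counts. Hypothalamus ZT18 replicate 4 had 691.5 CPM of mmu-mir-1298, below the 946.8 to 994.4 CPM of the others. What part choroid plexus tissue had in these values was not tested.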

How the results depend on the processing

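Of 129 alternative counts of called members, 123 kept within 1.5 times the main count. With 1 library left out at a time, all 328 counts for tissue (22 libraries, those of groups of 2 to 5) and rhythm (every library) did too. Passage counts were not run this way over every library, and there 1 library does move the count. The 6 others were as follows. Between passages in cortex, 1 member was called in the main fit, 2 with DESeq2 (which gave no adjusted p for mmu-mir-1298 and mmu-mir-448) or without ZT12, and 4 without ZT0 or without the library with the highest summed level (ZT0 replicate 1). Between striatum and hypothalamus the count was 1 at 0 to 12 h alone and 5 with no minimum ratio, against 2. The share of all hairpins called was recorded for the main fits only. Direction reversed only for passage ratios near 0. In cortex mmu-mir-448 was at −0.084 with run as a term, −0.028 without ZT3 and −0.040 without ZT6. In hypothalamus mmu-mir-448 was at −0.0029 with no filter, −0.0088 with run as a term and −0.026 without ZT12, and mmu-mir-764 was at 0.044 with run as a term, 0.036 without ZT0, 0.0084 without ZT12 and 0.014 without ZT6. The cause was not tested. The likeness of mir-187 in cortex was 0.67 by Pearson correlation in place of 0.77, and that of mir-34b in striatum 0.77 without the libraries that stand apart in place of 0.80.

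With the animal as a replicate block in place of ZT, the counts were 5 for striatum against cortex, 3 for hypothalamus against cortex, 2 for striatum against hypothalamus and 5 for each region against liver, as in the main fit. The ratio of mmu-mir-448 between striatum and hypothalamus was then 0.37 in place of 0.92. DESeq2 size factors moved the median of all tested hairpins by 0.15, 0.27 and −0.13 in the 3 brain comparisons, and no member changed direction. TMM-scaled totals lowered the 15 median levels to between 65.2 and 70.6% of their CPM. Depth limits mmu-mir-1912 most, with medians of 2.14 to 8.83 CPM.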
